A study of Homo sapiens with 32 samples.

Results

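The regions described here carried a peak of the transcription factor HNF4α in every list of 2 pancreatic ductal adenocarcinoma lines in which the factor was induced, and in no list of another line, AsPC1. They were chosen from chromatin immunoprecipitation sequencing (ChIP-seq) peak lists, by merging peaks that overlapped by at least 1 bp over the 14 lists made with an antibody to any isoform of the factor (pan-HNF4α). Of 78074 merged regions, 1914 (2.45%) had a peak of all 8 lists of the induced lines and of none of the 6 AsPC1 lists. They are called induced-only regions below. The presence and absence of peaks chose them, so neither is a result.

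The induced lines were Panc10.05 and BxPC3, each with doxycycline-driven expression of the α2 isoform of promoter P1 (P1-α2) or the α8 isoform of promoter P2 (P2-α8). BxPC3 received 500 ng/mL doxycycline with either isoform, whereas Panc10.05 received 25 ng/mL with P1-α2 and 12.5 ng/mL with P2-α8, so isoform and dose cannot be told apart in Panc10.05. The labels name no doxycycline for AsPC1, which carried CRISPR interference, a system that represses transcription at a guide's target, with guides to P1 (sgP1), to P2 (sgP2) or a control guide (sgNC). Each group had 2 libraries, and 4 further AsPC1 lists came from an antibody to P1 isoforms in sgP2 and sgNC. Lists of uninduced Panc10.05 or BxPC3 cells were not analysed here, so sites that these lines would hold without induction cannot be told apart from induced ones. The labels do not say whether the lines were clones or whether replicates were separate cultures, so p-values measure only the spread between these libraries.

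HNF4α is a nuclear receptor that binds DNA as a homodimer, at direct repeats resembling CAAAGTCCA, and activates genes of hepatocytes, enterocytes and other endodermal epithelia. Its P1 and P2 promoters give proteins that differ at the N-terminus, with a shared DNA-binding domain. In pancreatic ductal adenocarcinoma it is associated with the classical, epithelial subtype and is low in the basal-like, squamous subtype.

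The induced lists held 12681 to 41808 peaks and the AsPC1 pan-HNF4α lists 11686 to 24295. Peaks started at a −log10 q near 8 in the induced lists and near 2 in those of AsPC1, so the absence of an AsPC1 peak was scored at the more lenient threshold. Raising the AsPC1 threshold to a −log10 q of 8 gave 2215 regions. The count moved with list length. The 2 BxPC3 P2-α8 lists were the shortest of the induced lines, and without replicate 1 of that group the rule, which then asks for 7 lists, gave 2929 regions. With every list cut to the 11686 peaks of highest fold enrichment it gave 777, of which the regions overlapped 672 of the 1914. Each line came from a library series of its own, so line and series cannot be told apart.

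A minority of the regions lay at annotated promoters, and the sequences of 7 of these promoters are given because the letters at the peak can be read there. The regions at promoters included those of HSD3B1, a steroid dehydrogenase, GLYAT, which conjugates acyl groups to glycine in liver, RDH16, a retinol dehydrogenase, AWAT1, a wax ester synthase of skin, and SERPINA1, which encodes α1-antitrypsin. One lay inside HNF4A itself, at a start of its antisense RNA HNF4A-AS1. The sequences are the 250 bases before the annotated start, 5′ to 3′ on the gene's strand, from RefSeq, build GRCh38.p14. Capitals mark a match to the HNF4 pattern CAAAGNNCA on either strand. SERPINA1 is shown as a promoter at which this pattern was not found.
HSD3B1 (chr1:119506953-119507202, plus strand): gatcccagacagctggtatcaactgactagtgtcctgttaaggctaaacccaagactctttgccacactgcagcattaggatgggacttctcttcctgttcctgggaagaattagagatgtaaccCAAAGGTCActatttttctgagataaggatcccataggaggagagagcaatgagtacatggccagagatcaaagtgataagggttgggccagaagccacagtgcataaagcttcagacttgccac
GLYAT (chr11:58731944-58732193, minus strand): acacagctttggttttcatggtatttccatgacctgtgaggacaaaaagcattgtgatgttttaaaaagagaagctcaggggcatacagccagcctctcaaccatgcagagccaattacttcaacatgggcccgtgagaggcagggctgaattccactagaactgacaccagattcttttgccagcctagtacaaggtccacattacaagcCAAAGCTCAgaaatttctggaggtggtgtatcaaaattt
RDH16 (chr12:56957609-56957858, minus strand): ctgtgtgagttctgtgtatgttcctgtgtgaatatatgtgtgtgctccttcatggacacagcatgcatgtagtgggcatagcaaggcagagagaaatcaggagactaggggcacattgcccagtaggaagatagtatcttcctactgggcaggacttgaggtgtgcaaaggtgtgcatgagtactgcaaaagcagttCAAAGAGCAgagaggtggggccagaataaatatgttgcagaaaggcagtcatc
AWAT1 (chrX:70234405-70234654, plus strand): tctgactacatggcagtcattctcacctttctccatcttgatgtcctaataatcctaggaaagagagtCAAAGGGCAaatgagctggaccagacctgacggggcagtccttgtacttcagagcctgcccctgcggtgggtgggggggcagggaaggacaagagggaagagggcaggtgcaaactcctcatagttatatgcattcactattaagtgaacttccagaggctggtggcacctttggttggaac
ERICH4 (chr19:41442906-41443155, plus strand): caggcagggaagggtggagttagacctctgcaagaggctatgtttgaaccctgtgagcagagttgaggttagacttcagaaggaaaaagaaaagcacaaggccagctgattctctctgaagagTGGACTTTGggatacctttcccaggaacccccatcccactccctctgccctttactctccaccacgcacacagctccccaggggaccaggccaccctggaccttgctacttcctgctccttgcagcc
HNF4A-AS1 (chr20:44395663-44395912, minus strand): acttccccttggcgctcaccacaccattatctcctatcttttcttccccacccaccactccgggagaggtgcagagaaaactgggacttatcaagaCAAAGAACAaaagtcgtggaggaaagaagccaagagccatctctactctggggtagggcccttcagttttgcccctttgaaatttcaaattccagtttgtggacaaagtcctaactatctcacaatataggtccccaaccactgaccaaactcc
SERPINA1 (chr14:94390636-94390885, minus strand): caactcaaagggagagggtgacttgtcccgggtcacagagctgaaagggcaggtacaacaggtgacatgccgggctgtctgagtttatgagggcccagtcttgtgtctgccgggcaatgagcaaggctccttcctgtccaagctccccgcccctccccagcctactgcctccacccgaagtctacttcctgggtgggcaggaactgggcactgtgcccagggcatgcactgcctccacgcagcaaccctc

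The match began 125 bases before the start at HSD3B1, 39 at GLYAT, 53 at RDH16, 182 at AWAT1, 127 at ERICH4 and 154 at HNF4A-AS1. In ERICH4 it lay on the opposite strand and reads TGGACTTTG. The 7 promoters were picked after their sequences were seen.

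Promoter windows ran from 250 bases before to 50 bases after a RefSeq start, and the table held none on chromosome 8, where promoters were not analysed here. Of the 1817 induced-only regions on the other chromosomes, 32 (1.76%, exact 95% interval 1.21 to 2.48) overlapped a window, against 7.73% of all merged regions. Of the 2214 such regions with a peak of all 14 lists, 310 (14%, 12.6 to 15.5) did. Among regions with a peak in all 8 induced lists, the share at promoters was 1.76%, 2.24%, 4.56%, 4.97%, 6.27%, 6.29% and 14% with 0, 1, 2, 3, 4, 5 and 6 AsPC1 lists. The share was therefore lowest where AsPC1 had no peak, and the intervals of the first and last classes did not overlap. The interval of the class with 1 AsPC1 list (0.904 to 4.55) contained that of the first class, so these neighbours were not told apart. Regions found in all 6 AsPC1 lists and in no induced list stood between them, with 79 of 867 (9.11%, 7.28 to 11.2) at a promoter. Whole lists differed too. In the AsPC1 pan-HNF4α lists 5.53 to 6.90% of summits lay in a window. The share was 3.68 to 4.72% in the Panc10.05 lists and 1.67 to 2.55% in those of BxPC3. Median region width was 785 bp with 0 AsPC1 lists and 1069 bp with 6. The part of list and width in these shares was not tested.

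**Figure D1:**
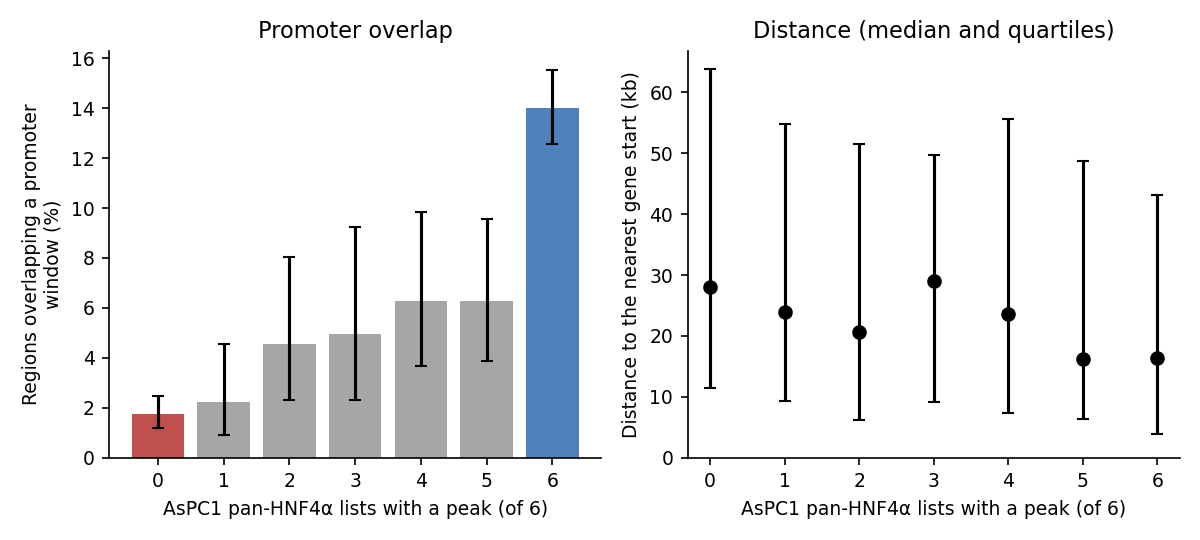
Left, share of regions overlapping a promoter window (%, bars with exact 95% intervals) among regions with a peak of all 8 induced lists, by the number of AsPC1 pan-HNF4α lists with a peak. Right, distance to the nearest gene start in kb (point, median; line, quartiles) for the same classes. The induced-only regions (0 lists, red) have the lowest share, 1.76%, and the regions of all 14 lists (6 lists, blue) the highest, 14%.

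The distance to a gene start followed less steadily. Its median was 28031 bp for the induced-only regions, 16465 bp for the regions of all 14 lists and 20905 bp for those of AsPC1 alone. In the classes between, it ranged from 16211 bp to 29040 bp without a steady fall. Fewer induced-only regions than regions of all 14 lists had their middle inside a protein-coding gene (849, 44.4%, against 1226, 52.7%). More lay over 100 kb from one (311, 16.2%, against 205, 8.82%), beside 14.2% of all merged regions.

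The 32 regions touched 35 promoter windows, some of which overlap each other. The HNF4 pattern was present in 12 of the 35 (34.3%, exact 95% interval 19.1 to 52.2). It was present in 60 of 430 windows at regions of all 14 lists (13.95%, 10.8 to 17.6), in 10 of 98 at regions of AsPC1 alone (10.2%) and in 1843 of all 34943 windows (5.27%). The summit, the highest point of the peak, lay inside 23 of the 35 windows, and 11 of these 23 held the pattern (47.8%), centred 25 to 185 bp from the summit with a median of 49 bp. This restriction was chosen after the data were seen. No such share is given for the other sets, so 47.8% is not to be set beside theirs. HSD3B1 and HNF4A-AS1 each gave 2 of the windows with the pattern, which share most of their bases.

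The promoters also differed in base composition. The median GC content was 50.7% in the windows at induced-only regions, 64% at regions of all 14 lists, 64.8% at regions of AsPC1 alone and 58.7% over all windows. The part of base composition in the motif shares was not tested. Of 10 patterns searched in the same way on both strands, the AP-1 pattern TGANTCA was in 6 of the 35 windows (17.1%, against 7.72% of all), the TEAD pattern GGAATG in 10 (28.6%, against 14%), the GATA pattern AGATAA in 6 (17.1%, against 10.4%) and the KLF pattern GGGNGTGG in 10 (28.6%, against 17.1%). The FOX patterns TGTTTAC or TGTTTGC were in 3 (8.57%, against 7.17%), the CDX pattern TTTATNG in 2 (5.71%, against 9.75%), the RUNX pattern TGTGGTT in 1 (2.86%, against 4.27%) and the HNF1 pattern in 0 (against 0.0487%). The ETS pattern CCGGAAGT was in 0 of the 35, against 4.11% of all, and in 34 of the 430 windows at regions of all 14 lists (7.91%). With 35 windows these shares have wide intervals, for example 14.6 to 46.3% for TEAD, and a match is a run of letters, not a bound site.

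At HSD3B1 the region chr1:119506858-119507376 had fold enrichments of 13.8 and 12.0 in Panc10.05 P1-α2, 16.1 and 22.8 in Panc10.05 P2-α8, 16.4 and 14.6 in BxPC3 P1-α2, and 11.4 and 8.43 in BxPC3 P2-α8. These are the authors' values per peak, and they compare regions within a list only. At GLYAT (chr11:58731730-58732316) the folds were 10.6 and 16.6, 15.3 and 20.3, 13.4 and 13.4, and 12.5 and 9.52 in the same order of groups. Both were of middle rank, with a mean percentile by fold over the 8 lists of 64.5 and 64.3, where 100 is the strongest peak of a list.

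The strongest of the promoter regions shown was that of AWAT1 (chrX:70234133-70235056), with folds of 39.8 and 82.6, 64.5 and 51.2, 20.3 and 36.1, and 10.4 and 11.7, and a mean percentile of 89.6. The weakest shown was that of RDH16, with a mean percentile of 21.1. Its folds were 8.71 and 13.6, 4.54 and 6.01, 10.0 and 5.85, and 8.87 and 7.35. The SERPINA1 region (chr14:94390541-94391141) had 12.4 and 28.3, 17.1 and 18.6, 16.9 and 9.01, and 10.13 and 8.98. The region inside HNF4A (chr20:44395152-44396255), the gene of the factor itself, had 11.3 and 14.8, 25.1 and 22.0, 9.25 and 13.1, and 10.2 and 8.73. By rank, the isoform difference at HNF4A was not called (adjusted p = 0.28, limma fit described below). The nearest AsPC1 pan-HNF4α peak lay 4.47 kb away at HNF4A, 44.6 kb away at SERPINA1 and 141 kb away at HSD3B1.

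The induced-only regions were not the weak end of the induced lists. Their median fold was 17.6 and 26.1 in the Panc10.05 P1-α2 lists, 20.2 and 18.5 in Panc10.05 P2-α8, 21.2 and 16.9 in BxPC3 P1-α2, and 10.9 and 9.98 in BxPC3 P2-α8. The median over all peaks of a list ran from 8.57 to 14.6 and was the lower one in each of the 8 lists. The median of the mean percentile was 72.2, beside 77.6 for the regions of all 14 lists. A peak in all 8 lists was asked of each, which favours strong regions, so this is a description of the choice.

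Just outside the rule, 1865 regions had a peak in 7 of the 8 induced lists and no AsPC1 list, with a median mean percentile of 61.9. The missing list was BxPC3 P2-α8 replicate 1 in 1015 of them and replicate 2 in 437. Another 329 had all 8 induced lists and 1 AsPC1 list, with a median mean percentile of 72.8, and in 222 of these that list was sgNC replicate 1, the longest. The induced-only regions were 448 to 3052 bp wide with a median of 785 bp. In 1242 of them (64.9%) the summits of the 8 lists lay within 100 bp of each other. This was not particular to them. The median spread of the summits was 80 bp, against 80 bp in regions of all 14 lists and 81 bp in all regions of the 8 induced lists.

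The nearest AsPC1 pan-HNF4α peak was usually far away. The distance had a median of 34888 bp and ran from 127 to 2440510 bp, with 35 regions within 1 kb, 421 (22%) within 10 kb and 477 (24.9%) beyond 100 kb. The 48360 other merged regions without an AsPC1 peak had a median of 36750 bp, with 23.7% within 10 kb and 27.0% beyond 100 kb, so by distance the induced-only regions resembled them.

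By mean percentile over the lists, the 10 strongest regions lay near or inside GLCE, GSAP, KCND2, LAP3, APOA1, YPEL2, MYO3B, CA13, C9orf152 and TENM4, at mean percentiles of 98.8 to 99.7. The first was 31.8 kb from GLCE, an epimerase of heparan sulfate synthesis (chr15:69128325-69129434), with folds of 65.0 and 88.1 in Panc10.05 P1-α2, 61.7 and 54.6 in Panc10.05 P2-α8, 62.6 and 41.4 in BxPC3 P1-α2, and 32.3 and 25.8 in BxPC3 P2-α8. It stood at the top of each list, its lowest percentile being 99.1. The second lay inside GSAP (chr7:77316075-77317122), which encodes a γ-secretase activating protein, with folds of 74.6 and 159.6, 60.3 and 50.1, 62.4 and 58.2, and 23.4 and 23.4.

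Of these 10, only APOA1 belongs to a gene list used here. It encodes apolipoprotein A-I and is a classical HNF4α target of liver and intestine. The region lay 1.37 kb from the gene (chr11:116838398-116839588), and its folds were 74.8 and 136.9, 59.7 and 49.2, 47.7 and 60.4, and 21.1 and 20.4. It ranked near the top of each of the 8 lists, its lowest percentile being 96.7. An AsPC1 peak lay 1.88 kb away, so the neighbourhood of APOA1 was not free of AsPC1 binding. A region 234 kb from the potassium channel gene KCND2 (chr7:120038605-120039817) had 111.4 and 133.1, 59.6 and 53.2, 73.5 and 68.3, and 23.2 and 20.9.

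**Figure D2:**
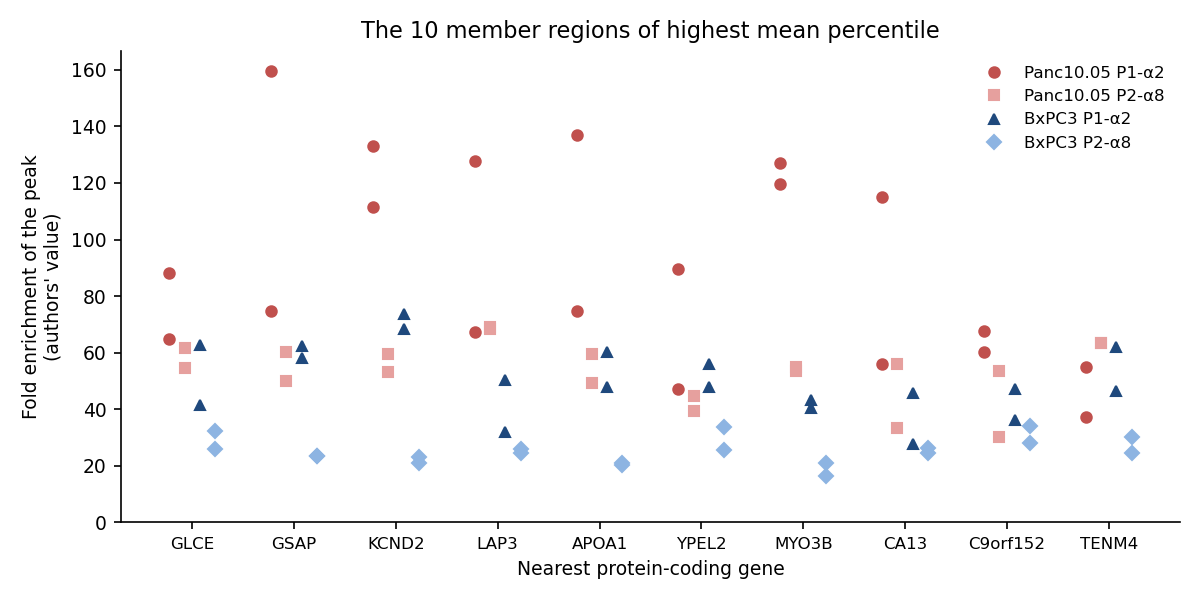
Fold enrichment of the peak (authors' value, linear axis from 0) in each of the 8 induced libraries, at the 10 induced-only regions of highest mean percentile, named by nearest protein-coding gene. Each symbol is 1 library, 2 per group. The BxPC3 P2-α8 libraries (light blue) lie between 16.5 and 34.1, and folds are comparable within a library only.

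The nearest protein-coding gene was assigned to the middle of each region. It gave 1577 genes with at least 1 induced-only region, 7.87% of the 20037 in the table. Of these genes 1312 had 1 region, 210 had 2 and 55 had 3 or more. In 1126 of the 1577 (71.4%) the gene was also the nearest one to a merged region with an AsPC1 peak, against 51.4% of all genes. In 344 (21.8%) it was also the nearest one to a region of all 14 lists, against 9.39% of all genes.

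Most regions per gene, 5 each, were found at CDYL, CITED2, FER1L6 and PRKCH. At PRKCH, a protein kinase C isoform of epithelia, all 5 lay inside the gene, between positions 61380798 and 61537878 of chromosome 14, with mean percentiles of 16.6 to 81.3. At FER1L6, a ferlin family gene, 4 of 5 lay inside, on chromosome 8, and no region of all 14 lists had this gene as its nearest. At CITED2, a transcriptional coregulator, the 5 regions were spread over 873.5 kb beyond the gene, which was also nearest to 17 regions with an AsPC1 peak.

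A further 9 genes had 4 regions each (CAST, CD200R1L, KALRN, KCND2, LINGO2, LPP, MYO10, PDZRN4 and TPD52-MRPS28). CD200R1L, LINGO2 and PDZRN4 were nearest to 0 regions with any AsPC1 peak, whereas CAST, KALRN and LPP were nearest to 14, 11 and 13. The 4 regions of LINGO2, a leucine-rich repeat gene of neurons, lay 405 kb or more from any AsPC1 peak. They fell in a stretch of chromosome 9 from 27465600 to 32383986 that held 7 induced-only regions, 79 regions with a peak of any induced list and no AsPC1 pan-HNF4α peak.

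Stretches of this kind with 5 or more induced-only regions numbered 5. That with most ran from 100401441 to 101753499 on chromosome 3, with 8 induced-only regions near ABI3BP, ADGRG7, IMPG2, LNP1, TFG and TMEM45A among 41 regions of any induced list. The others were on chromosome 3 from 112700218 to 113436665 near CD200R1L and BOC, on chromosome 8 from 123930873 to 124225069 at FER1L6, and on chromosome 12 from 66302994 to 67268931 near GRIP1 and HELB. Close clustering was less common than among regions of all 14 lists. With regions joined when within 50 kb, 18.3% of the induced-only regions lay in a cluster of their own kind, against 29.7% of regions of all 14 lists, and the clusters of 4 regions were 2, both on chromosome 9, near FRMD3 and IDNK and near PALM2AKAP2, C9orf152, TXN and TXNDC8.

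By chromosome, the share of induced-only regions among the 5628 with a peak in all 8 induced lists was 34.0% over the genome. It was highest on chromosomes 13 (43.2%, 41 of 95), 9 (42.0%, 137 of 326) and 3 (40.2%, 146 of 363). It was lowest on chromosomes 19 (19.1%, 31 of 162), 21 (21.3%, 10 of 47), 17 (24.9%, 43 of 173) and 10 (24.9%, 57 of 229). The exact 95% intervals of chromosomes 9 (36.6 to 47.6), 3 (35.1 to 45.5) and 1 (34.15 to 41.7) lay above the genome's share, and those of 2 (22.2 to 31.7), 19 (13.4 to 26.0), 17 (18.6 to 32.0) and 10 (19.4 to 31.0) lay below it. They treat regions as independent, which neighbouring regions are not.

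**Figure D3:**
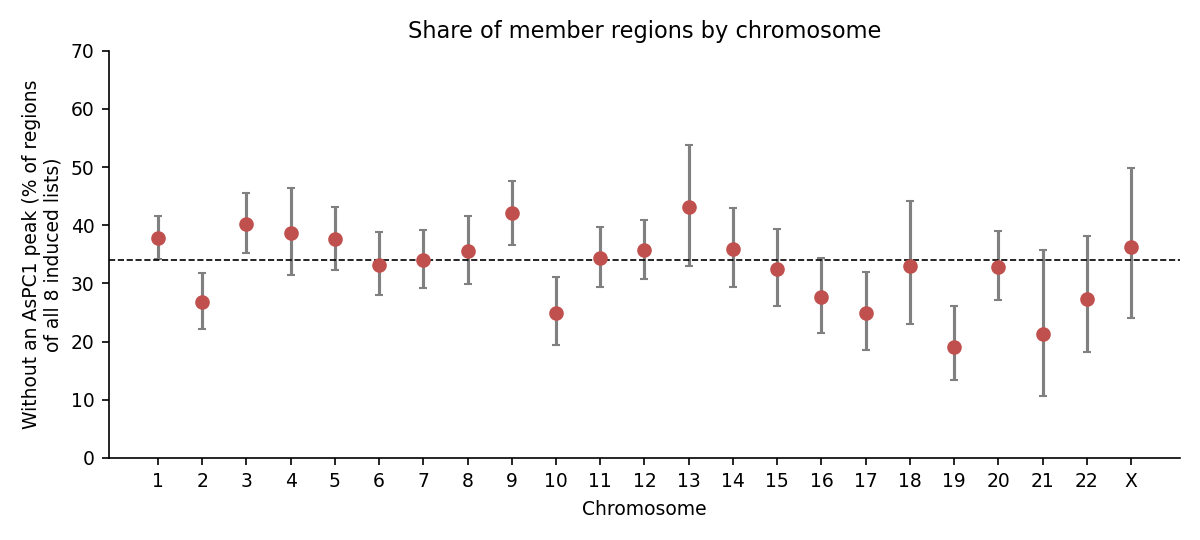
Share of regions with a peak of all 8 induced lists that had no AsPC1 pan-HNF4α peak (%), by chromosome, with exact 95% intervals that cover counting error only. The dashed line is the share over the genome, 34.0%, and the intervals of chromosomes 1, 3 and 9 lie above it and those of 2, 10, 17 and 19 below it.

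Gene lists of programs relevant to pancreatic cancer held 29 genes out of 153 that were nearest to an induced-only region. Among 20 basal and squamous genes, 5 had one, KRT5, TP63, TRIM29 and SLC2A1 among them, and among 20 genes of the classical program 1 did, CDH17. Counting genes with a region within 50 kb instead gave 4 and 1, where KRT6A joined the first list and LGALS4 stood alone in the second. In that count the same region can serve several neighbouring genes. As the lists are short and were drawn up with earlier results known, the counts of nearest genes describe the lists beside the 7.87% of all genes. For the counts within 50 kb, here and below, no share over all genes is given, so they are not to be set beside 7.87%. Listed genes were often nearest to a region with an AsPC1 peak as well, 12 of 20 basal and squamous and 15 of 20 classical genes. In every list except the hepatic and enteric targets (9 of 20), that share was above the 51.4% of all genes.

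Near TRIM29, a tripartite-motif gene of squamous epithelia, the region lay 53.7 kb from the gene (chr11:120057027-120058165). Its folds were 92.7 and 81.4 in Panc10.05 P1-α2, 88.3 and 64.0 in Panc10.05 P2-α8, 42.5 and 40.5 in BxPC3 P1-α2, and 17.9 and 15.2 in BxPC3 P2-α8. Its mean percentile of 98.1 put it among the strong regions, with no AsPC1 peak within 127 kb. TP63 encodes p63, the master regulator of squamous identity, and the region inside it (chr3:189690436-189691301) had folds of 29.9 and 28.7, 24.2 and 24.9, 29.6 and 19.2, and 11.7 and 15.3, a mean percentile of 88.0.

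The TP63 locus was not without AsPC1 binding, since 7 other regions with an AsPC1 peak had TP63 as their nearest gene, and the nearest AsPC1 peak lay 4.03 kb away. KRT5, the basal keratin, had a weak region 0.835 kb from the gene, with folds of 5.97 to 11.1 and a mean percentile of 22.2. SLC2A1, the glucose transporter GLUT1, had a region at 84.6 kb with a mean percentile of 87.1.

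CDH17, the intestinal cadherin of the classical list, had 2 regions, 61.3 and 81.1 kb from the gene, with mean percentiles of 65.9 and 92.7. Of the 20 hepatic and enteric HNF4α targets, APOA1, SERPINA1 and PCK1, the gluconeogenic enzyme, were nearest to one. Within 50 kb the number of genes was 6, with APOA4, APOC3 and TTR added, and the same region can serve several of them. The PCK1 region lay 13.7 kb away (chr20:57546991-57547919) with a mean percentile of 83.8. In Panc10.05 its folds were 19.2 and 15.2 with P1-α2 and 37.7 and 35.6 with P2-α8, and in BxPC3 23.1 and 20.9 with P1-α2 and 21.7 and 9.88 with P2-α8. By rank, neither the isoform difference at PCK1 (adjusted p = 0.348, limma) nor its difference between lines (adjusted p = 0.474, limma) was called.

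Of 17 genes of the YAP and TEAD pathway, 5 were nearest to an induced-only region. These were YAP1, the coactivator, its DNA-binding partners TEAD1 and TEAD4, and AMOTL1 and AMOTL2, angiomotin-like inhibitors of YAP. The AMOTL2 region (chr3:134350610-134353168) was the strongest, with folds of 28.6 and 71.3, 36.9 and 30.6, 32.6 and 32.8, and 14.4 and 11.9. The others had mean percentiles of 52.5 to 80.7, and those inside TEAD1 and TEAD4 lay 3.01 and 3.19 kb from an AsPC1 peak.

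The TGF-β list gave 4 of 18 (TGFBR3, SMAD3, SMAD6 and INHBA), the integrin and laminin list 4 of 16 (ITGA1, ITGA2, ITGB5 and LAMB1), and the mesenchymal list 3 of 15 (SNAI2, FN1 and SPARC). Within 50 kb the numbers were 2 (TGFBR3 and SMAD3), 4 (the same genes) and 2 (SNAI1 and SPARC). The regions of INHBA, FN1, SNAI2 and SMAD6 lay 291, 69.7, 63.1 and 60 kb from those genes. Epithelial transcription factors gave 3 of 15, GRHL2, FOXA2 and KLF4, the last with 3 regions, 2 of them 410 and 464 kb from the gene. Within 50 kb CDX2 took the place of FOXA2, whose region lay 56.7 kb away. Of 12 AP-1 and related subunits, MAFK was the only one, and within 50 kb MAFF was added. SMAD3, a TGF-β signal transducer, was nearest to 28 regions with an AsPC1 peak, and INHBA, an activin subunit, to 0. The region of SNAI2, a repressor of epithelial genes, ranked higher in Panc10.05 (folds of 42.2 and 69.5, 38.3 and 30.4) than in BxPC3 (29.6 and 10.6, 7.66 and 6.09). That difference of 1.99 (SE 0.42) in normal score, the unit explained next, passed the test of line (limma, adjusted p = 0.00397).

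To compare isoforms, the 5628 regions with a peak in all 8 induced lists were ranked by fold within each library and the ranks turned into normal scores, where 0 is the middle of the library. This gives each library the same distribution, whatever its length. Regions had to pass the threshold in each library to enter, so changes between presence and absence are not seen. Linear models over all 5628 regions (limma) tested isoform, line and their interaction.

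No induced-only region was called higher with P1-α2 (0% of all 5628), and 5 (0.261%) were called higher with P2-α8, against 0.107% of all regions tested (6, 5 of them induced-only). At an unadjusted p under 0.05 in limma, 72 (3.76%) were higher with P1-α2, against 4.76% of all, and 177 (9.25%) higher with P2-α8, against 5.38%. The 5 lay near MATN1, CDH26, PRB2 and INSIG2 and inside PAXIP1, and in each of them both P2-α8 scores were above both P1-α2 scores in both lines. With ranks by −log10 p in place of fold, 15 (0.784%) were called higher with P2-α8, against 0.32% of all regions, and 1 higher with P1-α2, against 0.0533%. With the replicate number as a block none of the 5 was called. Leaving out a library gave 0 without any 1 of the 4 Panc10.05 libraries, BxPC3 P1-α2 replicate 1 or BxPC3 P2-α8 replicate 2, 3 without BxPC3 P2-α8 replicate 1 and 7 without BxPC3 P1-α2 replicate 2.

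The region 250 kb from MATN1, a cartilage matrix gene (chr1:30461254-30462255), had scores of -1.35 and -1.62 with P1-α2 and 2.03 and 1.83 with P2-α8 in Panc10.05. In BxPC3 they were 0.16 and 1.76 with P1-α2 and 2.10 and 2.82 with P2-α8. The difference of -2.46 (SE 0.45, P1-α2 minus P2-α8) had an adjusted p of 0.0279 (limma). Its separation was wide in Panc10.05, whereas in BxPC3 the P1-α2 replicates themselves lay far apart.

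PAXIP1 encodes a BRCT-domain protein of a histone methyltransferase complex. The region inside it (chr7:154950864-154951546) had folds of 32.4 and 28.2 with P1-α2 and 55.5 and 37.0 with P2-α8 in Panc10.05, and of 20.9 and 18.0 with P1-α2 and 36.2 and 31.4 with P2-α8 in BxPC3. Its difference was -2.15 (SE 0.40, adjusted p = 0.0279, limma), larger in BxPC3 (-2.81) than in Panc10.05 (-1.50), without a call for the interaction (adjusted p = 0.52, limma). The region 91.3 kb from CDH26, a cadherin gene, differed by -2.42 (SE 0.44), that 102 kb from PRB2, a salivary proline-rich protein gene, by -2.16 (SE 0.43), and that 208 kb from INSIG2, a regulator of sterol synthesis, by -1.84 (SE 0.36).

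**Figure D4:**
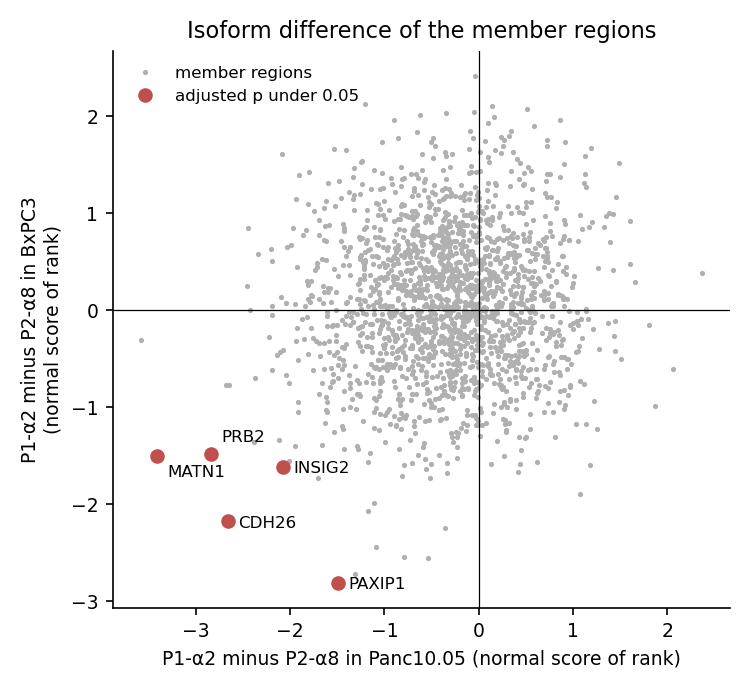
Difference between P1-α2 and P2-α8 in the normal score of rank (mean of 2 libraries each) for the 1914 induced-only regions, in Panc10.05 (horizontal axis) and BxPC3 (vertical axis). The 5 regions with an adjusted p under 0.05 in limma (red, named by nearest gene) lie at the lower left, and the cloud is centred left of 0 in Panc10.05, at a median of -0.30, and near 0 in BxPC3, at 0.07.

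Over the induced-only regions as a group, the library medians of the isoforms separated in Panc10.05 and not in BxPC3, a difference between lines that was not tested over the group. In each line, 2 libraries against 2 can reach no p below 0.333 in a two-sided exact permutation test. Such a test could therefore not decide whether the medians differ by isoform. In Panc10.05 the median score over them was -0.40 and -0.21 in the P1-α2 libraries and 0.038 and 0.050 in the P2-α8 libraries, so the groups did not overlap. In BxPC3 it was -0.058 and 0.097 with P1-α2 and -0.165 and 0.025 with P2-α8, and the groups overlapped. The median of the difference per region was -0.30 in Panc10.05 and 0.07 in BxPC3, against 0.015 and -0.004 over all 5628. The regions of all 14 lists had 0.249 in Panc10.05 and -0.09 in BxPC3. In Panc10.05 the isoforms also differ in doxycycline dose, and isoform and dose cannot be told apart there.

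**Figure D5:**
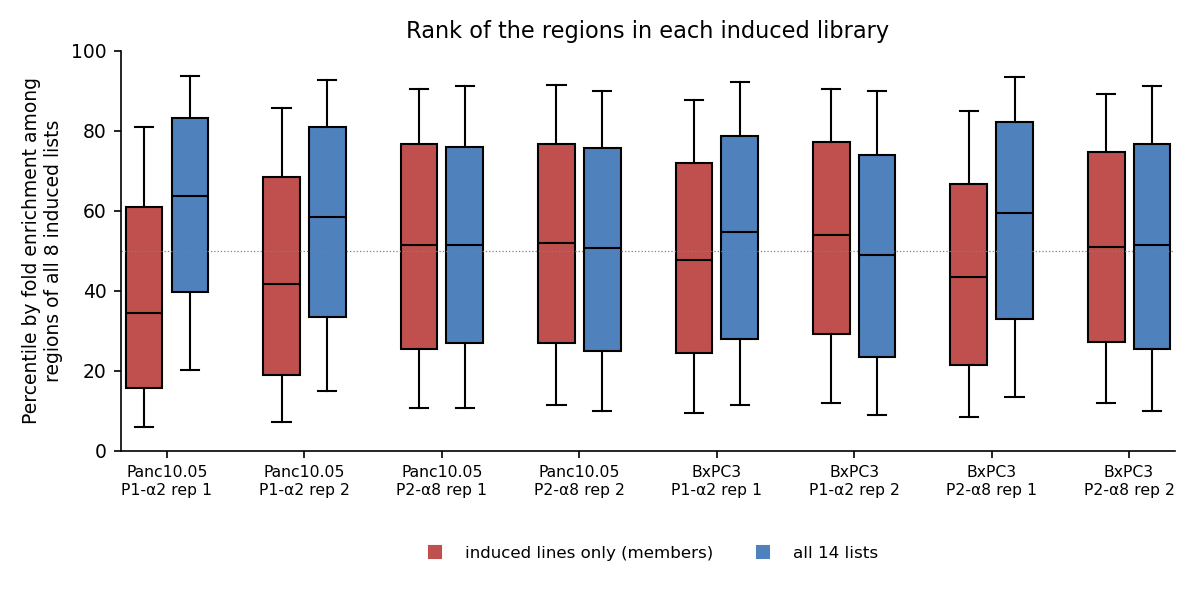
Percentile of regions by fold enrichment among the 5628 regions with a peak of all 8 induced lists, in each induced library (box, quartiles with median; whiskers, 10th to 90th percentile), for induced-only regions (red) and regions of all 14 lists (blue). The medians of the induced-only regions are 34.5 and 41.6 in Panc10.05 P1-α2 and 51.5 and 52.0 in Panc10.05 P2-α8.

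In counts, 733 induced-only regions (38.3%) ranked lower in both P1-α2 than in both P2-α8 libraries of Panc10.05, against 24% of all 5628, and 251 (13.1%) ranked higher, against 25.2%. In BxPC3 311 (16.2%) ranked lower, against 18.2%, and 426 (22.3%) ranked higher, against 18.4%. Lower in both lines were 130 (6.79%, against 4.58%) and higher in both 62 (3.24%, against 4.74%). Ranks are relative within a library, so a fall of the induced-only regions is also a rise of the others. All regions of a line were measured in the same libraries, so these counts are not counts of replicates.

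Region by region, the difference between lines in the isoform effect was not called at any of the 5628 (0% of them by limma at an adjusted p under 0.05). At an unadjusted p under 0.05, the P1-α2 over P2-α8 difference was larger in BxPC3 at 220 induced-only regions (11.5%, against 5.83% of all) and larger in Panc10.05 at 38 (1.99%, against 4.8%). Their median interaction was -0.39, against 0.016 over all regions. With ranks by −log10 p in place of fold, 6 induced-only regions (0.313%, against 0.142% of all) were called with the larger P1-α2 over P2-α8 difference in BxPC3, and 0 with the larger one in Panc10.05, against 0.0711%.

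Between lines, 109 induced-only regions (5.69%) were called higher in Panc10.05 and 150 (7.84%) higher in BxPC3, against 6.73% and 6.72% of all regions tested by limma. The share was thus near that of all regions in both directions. The counts depended on single libraries. The first was 55, 58, 57 and 70 without Panc10.05 P2-α8 replicate 1, P1-α2 replicate 2, P2-α8 replicate 2 and BxPC3 P1-α2 replicate 1, and the second was 99, 93 and 94 without Panc10.05 P1-α2 replicates 1 and 2 and BxPC3 P1-α2 replicate 1.

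The regions with the largest difference in each direction were named after their values were seen. Near SEMA4D, a semaphorin gene (chr9:89532417-89533593), the folds were 90.9 and 95.3, 53.2 and 62.3 in Panc10.05 and 13.4 and 15.4, 5.72 and 12.6 in BxPC3, with P1-α2 before P2-α8. Its score was higher in Panc10.05 by 2.94 (SE 0.48, adjusted p = 0.00079, limma). AQP3, an aquaglyceroporin of epithelia, held a region higher in Panc10.05 by 2.52 (SE 0.39), and ABI3BP, an extracellular matrix gene, one higher by 2.65 (SE 0.45).

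In the other direction, the region inside STIM1, the calcium sensor of the endoplasmic reticulum (chr11:3932998-3933756), had folds of 9.14 and 12.0, 10.3 and 14.2 in Panc10.05 and 38.2 and 36.9, 16.5 and 19.1 in BxPC3. Its score difference was -2.83 (SE 0.40, adjusted p = 0.000378, limma). A region 9.08 kb from IFT88, an intraflagellar transport gene, differed by -2.70 (SE 0.39).

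In AsPC1 the antibody to P1 isoforms gave lists that the choice of regions did not use, although the cells are those in which pan-HNF4α peaks were absent. As the pan-HNF4α antibody is to any isoform, P1 isoforms included, the choice itself favoured a low overlap, which is no separate support. Of the 1914 regions, 2 and 1 overlapped a P1-antibody peak in the sgP2 lists and 0 and 0 in the sgNC lists. Over all merged regions the shares were 5.86%, 4.76%, 0.839% and 0.316%, and over the regions of all 14 lists 76.0%, 70.5%, 19.1% and 8.47%. Of the 48360 other regions without an AsPC1 pan-HNF4α peak, 26, 2, 1 and 0 were overlapped. The mean difference between sgP2 and sgNC, 1.5 regions, gave p = 0.333 in a two-sided exact permutation test. That is the lowest value possible with 2 lists against 2, so the test could not decide whether they differed.

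The 3 regions with such a peak were near CYP2J2, an arachidonic acid epoxygenase gene, and far from SUCLG1 (1632933 bp) in sgP2 replicate 1, and inside SLIT3, a guidance ligand gene, in sgP2 replicate 2. None was overlapped in both sgP2 lists. With a −log10 q of at least 5 in the P1-antibody lists, the difference between sgP2 and sgNC was 0.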

How the data were processed

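ChIP-seq peak lists of 18 libraries of 3 human cell lines were used, 1 list per library, so peaks were called per sample. The 14 input libraries were not analysed here. Per the submitters' processing notes, Bowtie2 2.2.9 and MACS2 2.2.7 were used, with builds hg38 and mm10 named without a role. The deposited lists give each peak a linear fold ratio, p and q as −log10, an integer score and a summit offset, all by the authors. Read depth is unknown. Of the BxPC3 libraries labelled P2-a8 by genotype, the title reads P1-a8, and the genotype was used. The lists' positions were set beside RefSeq GRCh38.p14 genes and promoter windows: 1.67 to 6.90% of summits lay in a window, against 0 to 1.07% after a shift of 100 kb.

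Regions were merged in Python 3.11.15 and checked against bedtools 2.31.1, with 0 differing. Normal scores of ranks were fitted with limma 3.58.1 (R 4.3.3; line, isoform and interaction, 8 libraries), with Benjamini-Hochberg adjustment over 5628 regions and a threshold of 0.05, and the fit was tested on simulated data. Distances to genes are from the middle of a region, those to gene starts from its median summit, and those to AsPC1 peaks between edges. Exact (Clopper-Pearson) intervals cover counting error only. Named regions were the 10 of highest mean percentile, up to 5 per direction in the isoform contrast, those with a P1-antibody peak in both sgP2 lists (none), those nearest a listed gene, and the genes nearest most regions with ties. The regions, lists and tests were chosen with earlier results of these data known. Without a genome sequence, the bases of regions away from promoters were not analysed here. Some items that the naming rules select are not reported here.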

Additional observations from a re-analysis of the deposited data

How the results depend on the processing

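The number of induced-only regions, 1914, was 1934 with a −log10 q of at least 20 in every list (which overlapped 1278 of the 1914), 1879 with no AsPC1 peak within 1 kb and 1560 with the 8 summits within 100 bp of their median. It was 829 when peaks of BxPC3 P2-α8 replicate 1 had to share a reciprocal overlap of 50% with each other induced list, and 777 with lists of equal length by fold. Without 1 library it ran from 1918 to 2929. The share at promoters then lay between 1.62 and 2.24%, and 44.2% of regions lay in a gene by median summit. Windows of 100 and 500 bp for the motifs were not run, as they need a genome. Taking only windows with the summit, leaving out libraries for the promoter share and taking regions with at most 1 peak of each list (1840) were chosen after seeing the data.

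Calls higher with P2-α8 numbered 5, 15 with ranks by −log10 p (and 1 with P1-α2) and 0 to 7 without 1 library. The labels tie replicate numbers to no shared batch, and they were not taken as pairs. Deviations of same-numbered libraries correlated by -0.0067 in Panc10.05 and 0.153 in BxPC3, so pairing in BxPC3 is not settled. With the replicate block, 0 were called. The interaction had 0 calls, 6 by −log10 p (larger in BxPC3), and 0 without any 1 library. Line calls were 109 and 150, 318 and 321 by −log10 p (16.6% and 16.8%, against 16.5% and 15.8% of all regions), and 55 to 113 and 93 to 195 without 1 library. The P1-antibody difference, 1.5 regions, was 0 at a −log10 q of at least 5 and 1 to 2 without a library. The causes were not tested. Read depth is unknown and limits what an absent peak shows.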

Other observations

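The gene of the receptor EGFR was nearest to 3 induced-only regions and was chosen after its values were seen. The strongest lay inside the gene (chr7:55178426-55179503), with folds of 28.8 and 66.6 in Panc10.05 P1-α2, 28.7 and 20.0 in Panc10.05 P2-α8, 35.0 and 21.7 in BxPC3 P1-α2, and 13.2 and 15.6 in BxPC3 P2-α8. It had a mean percentile of 91.4, and the others, 51.5 and 55.1 kb from the gene, had 60.5 and 57.0. AsPC1 peaks lay 2.67 to 10.9 kb from the 3 regions.

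The induced-only region weakest by fold, on chromosome 18, was near the bottom of each list by that measure, with a mean percentile of 0.0083.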
